A study of Homo sapiens with 24 samples.

Results

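U-2 OS cytoplasmic RNA was compared with the cytoplasmic RNA of 2 other human cell lines, and the genes that differed from both in the same direction are described here as U-2 OS specific. The comparison used 11 of the 24 libraries of the series, 3 of U-2 OS (numbers 14 to 16), 4 of A-431 (21 to 24) and 4 of U-251MG (17 to 20). U-2 OS is an osteosarcoma line, A-431 an epidermoid carcinoma line and U-251MG a glioblastoma line, and the labels name no treatment for any of them. The study sequenced poly(A)-selected total and cytoplasmic RNA of these lines to ask how gene detection depends on the RNA fraction, and the contrast between lines within the cytoplasmic fraction is the question here. Each line is a single established line, so tissue of origin, donor and culture history cannot be told apart, and while replicate cultures of each line are described in the methods, no label says which library came from which, so p-values measure the spread between these libraries. Of 51715 genes counted, 19344 passed the filter on low counts and were tested, and 7233 of them were U-2 OS specific.

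Osteosarcoma cells descend from the bone-forming mesenchymal lineage, whose cells secrete type I collagen and other matrix proteins. U-2 OS is a widely used model in which telomeres are maintained without telomerase, by recombination between telomeres. A-431 is known for a very high level of the epidermal growth factor receptor, and U-251MG for a glial and mesenchymal character.

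The 11 libraries held 25915013 to 32394170 gene counts each. Across genes, log2 levels correlated at 0.992 to 0.996 within a line (15 pairs) and at 0.725 to 0.817 between lines (40 pairs), and the first 2 principal components (59.7% and 37.7% of the variance) set each line apart from the others. By the study's tables, U-251MG libraries 17 and 18 were sequenced on flow cell B and 19 and 20 on flow cell A. The third component set these pairs apart (-26.9 and -17.7 against 24.8 and 18.9), and the cause was not tested. MALAT1 and NEAT1, long non-coding RNAs known to stay in the nucleus, went against the fraction label: MALAT1 had 25.4 to 60.6 CPM (counts scaled to a common library size) in the 11 cytoplasmic libraries and 8.16 to 34.8 CPM in the 12 of total RNA, and NEAT1 617 to 1305 and 173 to 598 CPM. By the study's electrophoresis, the peak it took as the sign of nuclear RNA was seen in total RNA and, in cytoplasmic RNA, only in the preparation it removed. The U-2 OS cytoplasmic library 13 was left out, since the study set aside 1 U-2 OS cytoplasmic preparation for its nuclear RNA and library 13 is the one whose read total matched none of those the study lists. Neither RNA was U-2 OS specific (-0.02 and -0.73 for NEAT1 and 0.68 and -0.00 for MALAT1 as log2 differences from A-431 and U-251MG), and the list of nuclear-retained RNAs had 0 of 3 tested members called in either direction by edgeR or DESeq2 (by unadjusted p values under 0.05, 1 was higher). All levels below are CPM after TMM scaling, differences are log2 values of U-2 OS minus the other line, and a gene was called at a Benjamini-Hochberg adjusted p under 0.001 from the quasi-likelihood test of edgeR.

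U-2 OS was higher than A-431 in 6590 genes (34.1% of those tested) and lower in 6018 (31.1%). Against U-251MG, 6425 genes were higher (33.2%) and 5558 lower (28.7%). The 2 contrasts share the U-2 OS libraries. In the same direction from both, 4115 genes were higher in U-2 OS (21.3%) and 3118 lower (16.1%). Genes higher in U-2 OS differed by more than genes lower in it. For the smaller of its 2 log2 differences, the median higher gene had 1.41 and the median lower gene -0.81, and 1276 higher against 272 lower genes reached a size of 3. Among the higher genes, 220 had no read in any A-431 or U-251MG library, and 49 of the lower genes had no read in U-2 OS. A higher gene could pass the filter on U-2 OS reads alone, while a lower gene needed reads in both other lines. Sizes in the 2 directions therefore cannot be compared directly. The counts without reads also rest on more libraries for the other lines than for U-2 OS. The libraries of U-2 OS lay wholly above or below both other lines for 4113 of the 4115 higher and 3116 of the 3118 lower genes, a separation that the test itself favours. At the edge of the call, DAXX was just inside as higher (smaller difference 0.23, larger adjusted p = 0.000998, edgeR) and MAP2K2 as lower (-0.35, 0.000998), while HDAC10 was just outside as lower (-0.53, 0.0010003).

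**Figure D1:**
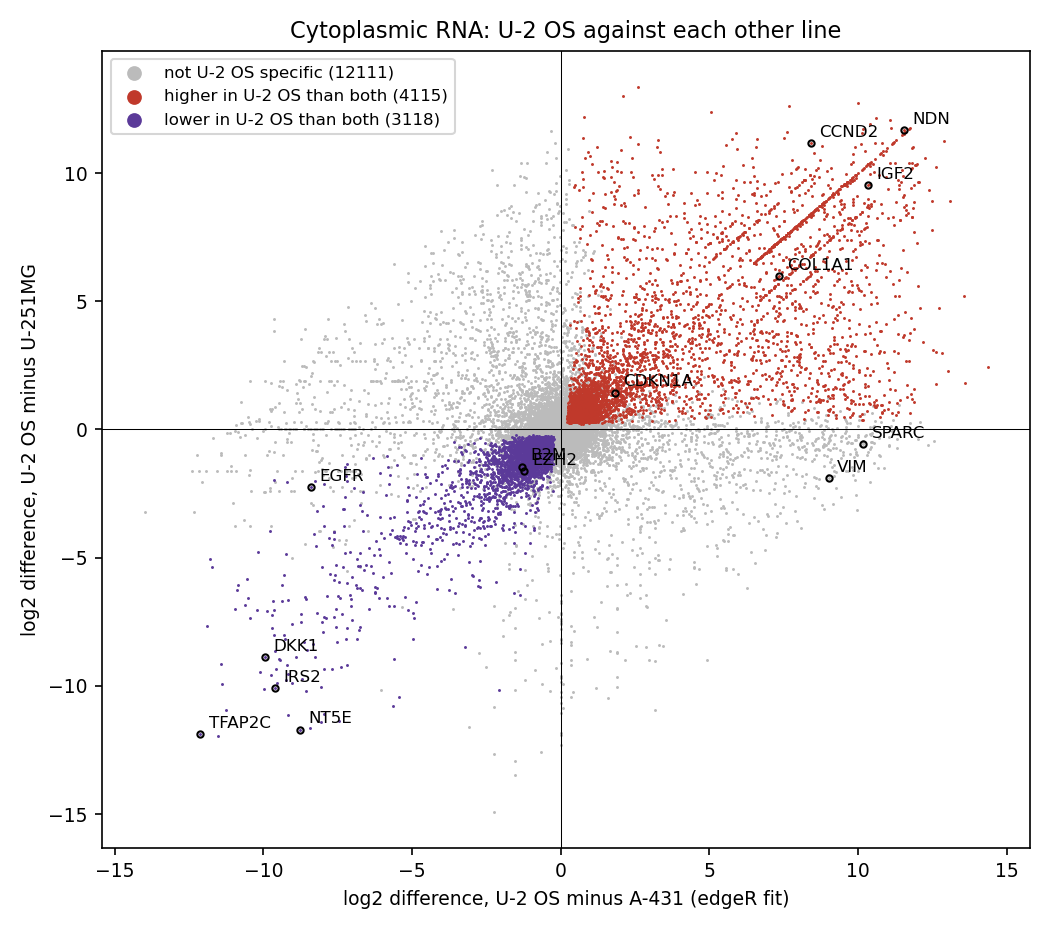
Each point is a gene tested in cytoplasmic RNA, with the fitted log2 difference of U-2 OS from A-431 on the horizontal axis and from U-251MG on the vertical axis. The 4115 genes higher in U-2 OS than both lines (red) reach farther from 0 than the 3118 lower ones (purple), and the diagonal line of red points holds genes with no read in either other line, whose fitted value is set by the prior count.

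The largest fitted differences upwards were genes at or close to 0 in both other lines. Where a line had no read, the fitted value is set by the prior count, and so is the rank. By the rule for named genes, the 15 with the largest smaller difference and at least 8 CPM in U-2 OS were TRPA1, COL22A1, ABCG1, ZSCAN18, NDN, LINC01638, EZHIP, IRF8, GPR27, ZNF135, TRIM58, TSPYL5, CACNA2D1, PAGE2 and MYO3A. NDN, the imprinted gene of the growth regulator necdin (ENSG00000182636, GRCh37 chromosome 15, 23930547 to 23932452), had 139, 138 and 133 CPM in U-2 OS, 0.0627, 0.0983, 0 and 0 CPM in A-431 and 0, 0.0739, 0.0359 and 0.0389 CPM in U-251MG. U-2 OS was far above every other library without overlap, and the log2 differences were 11.54 (SE 0.179, adjusted p = 1.34e-21) from A-431 and 11.69 (SE 0.184, adjusted p = 3.37e-21) from U-251MG. TSPYL5 averaged 99.4 ± 3.0 CPM in U-2 OS (SD, n = 3), with means of 0.0406 for A-431 and 0.0185 for U-251MG. TRPA1, a cation channel that senses irritants, had 14, 14 and 17.7 CPM in U-2 OS, 0 in all 4 libraries of A-431 and 0 in all 4 libraries of U-251MG. Where a line had no read, a fold was taken against a floor of 3 counts over its libraries together, which covers counting error only, and TRPA1 was at least 612-fold higher than A-431 and 549-fold higher than U-251MG on that basis. ABCG1, a cholesterol exporter of the cell membrane, had 13, 15.4 and 12.4 CPM in U-2 OS, 0 in all 4 libraries of A-431 and 0 in all 4 libraries of U-251MG, at least 546-fold and 489.9-fold higher. The same pattern of reads in every U-2 OS library and none in the 8 others held for the collagen gene COL22A1 (14.7 CPM in U-2 OS), the zinc finger genes ZSCAN18 (13.1) and ZNF135 (10.1), the long non-coding RNA LINC01638 (11), the myeloid transcription factor gene IRF8 (10.4), the orphan receptor gene GPR27 (10.2) and the class III myosin gene MYO3A (8.83). Against the floor, the log2 differences of MYO3A were at least 8.47 from A-431 and 8.31 from U-251MG, below the fitted 10.97 that ranked it. MAGEB2, with reads in both other lines, had a fitted smaller difference of 10.38 and was not among the 15. ZSCAN18 and ZNF135 overlap each other on opposite strands, and the counting did not use strand.

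EZHIP, which encodes an inhibitor of the histone methyltransferase EZH2, had 32.6, 35.2 and 32.3 CPM in U-2 OS, 0 in all 4 libraries of A-431 and 0.0366, 0, 0 and 0 CPM in U-251MG. One U-251MG read was the only one outside U-2 OS, which gives a ratio of 3651 with a 95% counting interval of 647 to 142343, and the gene was at least 1339-fold higher than A-431. CACNA2D1, an auxiliary subunit of voltage-gated calcium channels, averaged 47.2 CPM in U-2 OS and rested on 1 read in A-431 and 2 in U-251MG. TRIM58, a ubiquitin ligase gene, averaged 47 CPM against 2 and 1 reads.

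By fitted difference, the 15 genes lower by the most, with at least 8 CPM in both other lines, were TFAP2C, CACNG4, TOM1L1, IRS2, SUPT3H, BTBD6, HERC5, HSPA4L, C6orf141, NIBAN1, EPHX4, AGPAT3, DKK1, FILIP1L and NT5E. TFAP2C, which encodes the transcription factor AP-2 gamma, had 0 in all 3 libraries of U-2 OS, 19.8, 19.8, 18.6 and 20.1 CPM in A-431 and 15, 15.7, 17.7 and 18.6 CPM in U-251MG. No U-2 OS library held a read of it, so it was at least 552-fold lower than A-431 and 473-fold lower than U-251MG. IRS2, the adaptor that insulin and IGF1 receptors phosphorylate (ENSG00000185950, GRCh37 chromosome 13, 110405042 to 110438930), had 0.035, 0.0366 and 0.0348 CPM in U-2 OS, 31.5, 31.6, 34.1 and 28.4 CPM in A-431 and 46.4, 43.6, 44.6 and 40.5 CPM in U-251MG. The 3 U-2 OS libraries held 1 read each, and the ratio was 886 (95% counting interval 303 to 4298) to A-431 and 1233 (422 to 5983) to U-251MG. NT5E, the cell surface nucleotidase CD73 that makes adenosine, had 0.526, 0.0733 and 0.0348 CPM in U-2 OS, 95, 93.6, 101 and 90.4 CPM in A-431 and 511, 702, 876 and 808 CPM in U-251MG. U-251MG was the highest line for NT5E, and the log2 differences were -8.77 (SE 0.401, adjusted p = 7.99e-09) from A-431 and -11.70 (SE 0.392, adjusted p = 6.56e-10) from U-251MG. NIBAN1 had 0.44 CPM in U-2 OS against 230.3 and 419 (510 and 437 in U-251MG libraries 17 and 18, 361 and 369 in 19 and 20). AGPAT3, an acyltransferase of phospholipid synthesis, had 0.295 against 213 and 150.2. BTBD6 averaged 0.083, 64.2 and 83.4 CPM in the same order of lines, HSPA4L, a chaperone of the Hsp110 family, 0.0587, 48.4 and 41.1 CPM, FILIP1L 0.192, 93.3 and 90.7 CPM, and TOM1L1 0.0349, 40.1 and 45 CPM. CACNG4 had no read in U-2 OS against 12.9 and 17.4 CPM. SUPT3H, a subunit of the SAGA coactivator, HERC5, a ligase for the ubiquitin-like protein ISG15, C6orf141 and EPHX4 each rested on 1 read in U-2 OS, against 13.8, 18.1, 9.48 and 11.3 CPM in A-431 and 12.4, 11.3, 9.34 and 8.32 CPM in U-251MG. SUPT3H overlaps RUNX2 on the opposite strand.

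**Figure D2:**
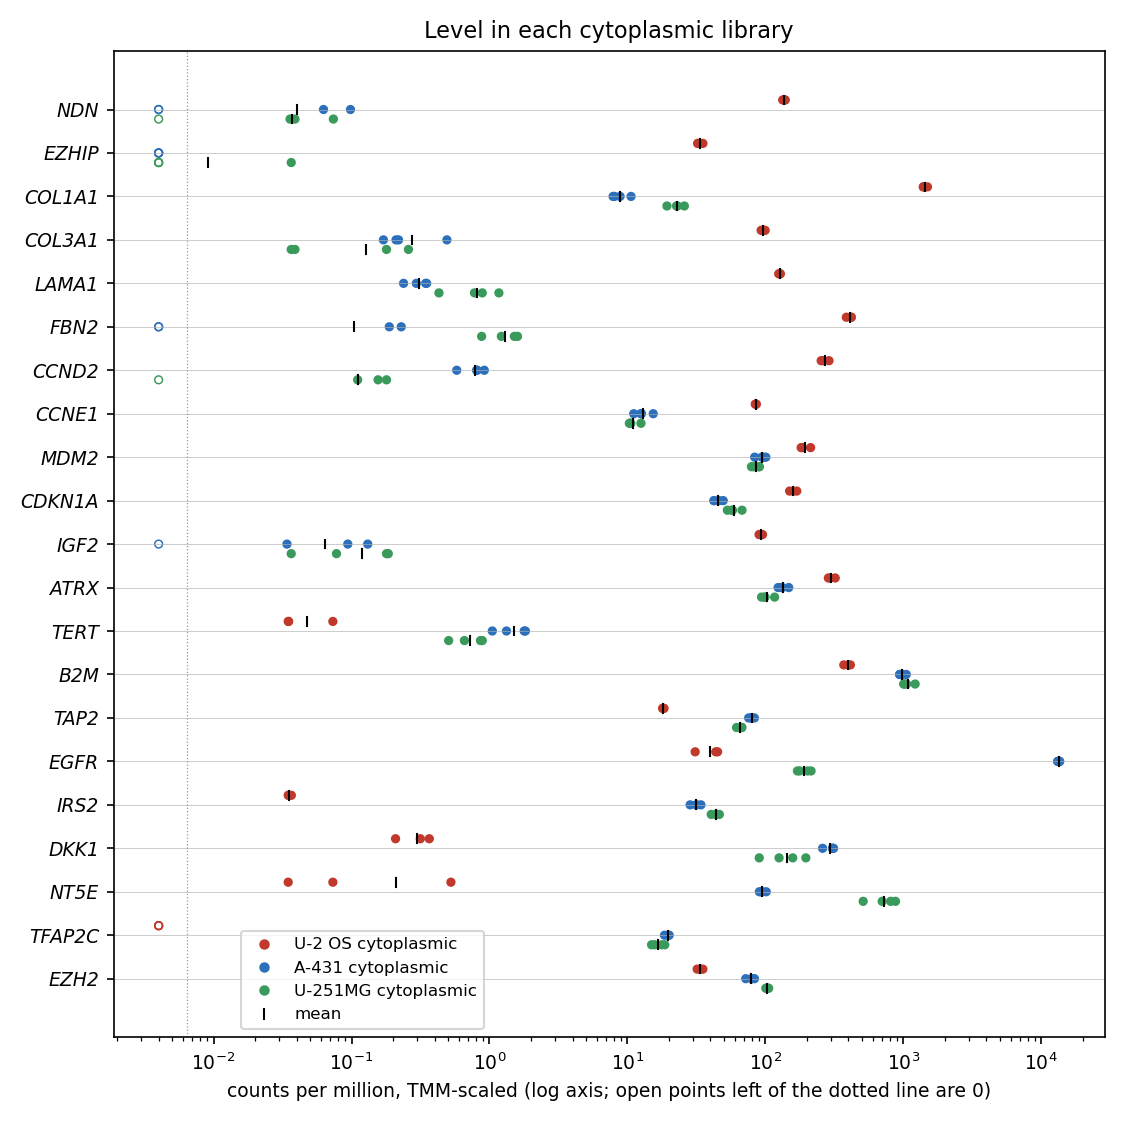
Each point is the level of a gene in 1 cytoplasmic library, in TMM-scaled CPM on a log axis, with open points left of the dotted line for libraries at 0 and black ticks for line means. U-2 OS (red) lies to the right of both other lines for genes such as NDN and CCND2 and to the left for genes such as IRS2, DKK1 and B2M, and libraries of the same line lie close together except near 0.

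Promoter sequence was described by its content of CG dinucleotides, the sites of DNA methylation. To show the range from none to many, the 100 bases before the RefSeq transcription start (GRCh38.p14) are printed for the first 3 genes of each direction that the RefSeq promoter table held in lower case with CG in capitals. Of the 15 genes named upwards 10 had an entry and of those named downwards 13 (without one were TRPA1, COL22A1, ABCG1, GPR27, TSPYL5, TFAP2C and CACNG4). The positions are chr19:58118405-58118504 on the minus strand for ZSCAN18, chr15:23687306-23687405 on the minus strand for NDN, chr22:27224680-27224779 on the minus strand for LINC01638, chr17:54900752-54900851 on the plus strand for TOM1L1, chr13:109786584-109786683 on the minus strand for IRS2 and chr6:45377935-45378034 on the minus strand for SUPT3H.
ZSCAN18: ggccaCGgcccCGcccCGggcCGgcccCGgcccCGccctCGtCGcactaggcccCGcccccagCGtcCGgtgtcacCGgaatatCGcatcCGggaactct
NDN: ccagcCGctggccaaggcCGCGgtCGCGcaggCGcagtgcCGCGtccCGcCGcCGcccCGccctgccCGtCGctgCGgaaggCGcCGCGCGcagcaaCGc
LINC01638: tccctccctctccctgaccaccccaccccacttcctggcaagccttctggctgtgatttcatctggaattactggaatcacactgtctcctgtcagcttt
TOM1L1: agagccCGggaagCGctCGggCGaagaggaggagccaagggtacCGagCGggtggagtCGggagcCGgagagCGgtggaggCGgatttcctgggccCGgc
IRS2: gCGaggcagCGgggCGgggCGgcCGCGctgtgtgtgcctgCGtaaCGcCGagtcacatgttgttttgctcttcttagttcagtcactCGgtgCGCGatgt
SUPT3H: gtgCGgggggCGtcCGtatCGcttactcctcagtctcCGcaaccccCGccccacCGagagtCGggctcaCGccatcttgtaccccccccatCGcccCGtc

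The windows of ZSCAN18 and NDN, both silent or nearly so in the other lines, held 14 and 20 CG, and that of LINC01638 held 0. Those of the 3 lower genes held 11, 12 and 11. Over all protein-coding genes with a canonical transcript, the 250 bases before its start were read from GRCh37, and the CG count was divided by the count that the C and G content would give. CG-rich is used below for a ratio of at least 0.6, which held for 80.1% of 14143 genes tested, with a median of 0.82. It reached 0.6 in 75.5% of the 3307 protein-coding genes higher in U-2 OS and 87.2% of the 2621 lower ones. For genes with a smaller difference of 3 or more, the share was 59.3% of 964 higher genes (median ratio 0.68) and 69.7% of 198 lower genes (median 0.75), so both sets of large differences held fewer CG-rich promoters than all genes, while the median GC content of 66% and 67.4% stayed near the 66% of all genes. Methylation was not measured, and these shares are descriptions.

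Part of the bone matrix programme was higher in U-2 OS. The osteoblast list had 9 of 24 tested members higher than both lines (37.5%, against 21.3% of all genes) and 1 lower (2 without A-431 library 24), with a median difference of 2.14 from A-431 and -0.33 from U-251MG. For all genes these medians were 0.02 and 0.03, and here and below genes without a read in a line are set at their bound. COL1A1, the main chain of type I collagen, had 1400.5, 1495 and 1394 CPM in U-2 OS, 8.05, 8.85, 7.87 and 10.6 CPM in A-431 and 25.9, 22.7, 19.3 and 23 CPM in U-251MG. It ranked 8 among the tested genes by mean deposited RPKM, reads scaled to exon length and library size, in U-2 OS, and its differences were 7.34 (SE 0.106, adjusted p = 1.13e-21) from A-431 and 5.98 (SE 0.0981, adjusted p = 1.11e-20) from U-251MG. COL1A2, the partner chain of type I collagen, had 0.505 CPM in U-2 OS, 0.17 CPM in A-431 and 725 CPM in U-251MG, so the partner of an abundant chain was nearly absent from U-2 OS. ALPL, the alkaline phosphatase of mineralising bone, was low but higher in each U-2 OS library (2.1, 2.82 and 1.88 CPM in U-2 OS, 0, 0.0983, 0 and 0.0701 CPM in A-431 and 0, 0, 0 and 0.0389 CPM in U-251MG). TNFRSF11B, the decoy receptor osteoprotegerin, had 21.5 CPM in U-2 OS, 0.0251 CPM in A-431 and 1.05 CPM in U-251MG.

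RUNX2, the master transcription factor of osteoblasts, and SPARC, the bone matrix protein osteonectin, are markers of the bone lineage, and neither was U-2 OS specific. RUNX2 had 33.4, 38.2 and 38.7 CPM in U-2 OS, 22.6, 22.7, 23.3 and 24.7 CPM in A-431 and 59.6, 61.3, 56.7 and 55 CPM in U-251MG, so that U-2 OS lay between the others without overlap. SPARC had 1326 CPM in U-2 OS, 1.13 CPM in A-431 and 1982 CPM in U-251MG, and the bone marker CDH11 43.3 CPM in U-2 OS, 0.0682 CPM in A-431 and 136 CPM in U-251MG. TWIST1, an inhibitor of RUNX2 function, was the member of the list that was lower, with 0 reads in U-2 OS, 1.66 CPM in A-431 and 5.14 CPM in U-251MG.

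Among collagens and collagen enzymes 13 of 36 were higher (36.1%) and 2 lower (1 when any of U-2 OS 14 and 15, U-251MG 17, 19 and 20 or A-431 21 to 23 was left out), with medians of 3.32 from A-431 and -0.18 from U-251MG. COL3A1, the chain of type III collagen, had 93.1, 99.6 and 96.3 CPM in U-2 OS, 0.219, 0.492, 0.17 and 0.21 CPM in A-431 and 0.0366, 0.259, 0.179 and 0.0389 CPM in U-251MG. PCOLCE, which enhances the trimming of procollagen, had 78.1 CPM in U-2 OS, 2.45 CPM in A-431 and 2.63 CPM in U-251MG, and COL16A1 98.3 CPM in U-2 OS, 1.0 CPM in A-431 and 5.32 CPM in U-251MG. Of the integrins and laminins, 6 of 27 were higher and 6 lower (22.2% each, against 21.3% and 16.1% of all genes). Medians were 0.85 from A-431 and -0.03 from U-251MG. The lower members included ITGB4, and the members with values here are higher ones. LAMA1, a laminin chain of embryonic basement membranes, had 127, 128 and 125 CPM in U-2 OS, 0.345, 0.295, 0.238 and 0.35 CPM in A-431 and 1.17, 0.887, 0.43 and 0.779 CPM in U-251MG, and LAMC3 14.4 CPM in U-2 OS, 0.0163 CPM in A-431 and 0.0282 CPM in U-251MG. ITGA11, a collagen receptor, had 3.85 CPM in U-2 OS, no read in A-431 and 0.0665 CPM in U-251MG. The mesenchymal list had 7 of 29 higher and 4 lower (medians 2.85 from A-431 and -0.99 from U-251MG), shares near those of all genes. FBN2, a microfibril protein of developing tissue, had 386, 419 and 419 CPM in U-2 OS, 0.188, 0.229, 0 and 0 CPM in A-431 and 0.878, 1.51, 1.22 and 1.6 CPM in U-251MG, and the homeobox gene PRRX2 had 3.95 CPM against no read in either other line. VIM, the filament protein of mesenchymal cells, had 1959 CPM in U-2 OS, 3.79 CPM in A-431 and 7365 CPM in U-251MG, so it was not specific. Matrix proteases and their inhibitors had 8 of 25 higher (32%) and 2 lower (8%), with medians of 3.27 from A-431 and 0.07 from U-251MG. Those higher were led by MMP24 (102 CPM in U-2 OS, 1.41 CPM in A-431 and 1.95 CPM in U-251MG), MMP9 (5.99 CPM in U-2 OS, 0.0332 CPM in A-431 and 0.0922 CPM in U-251MG) and MMP3 (4.23 CPM in U-2 OS, 0.00819 CPM in A-431 and 0.0555 CPM in U-251MG).

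Genes of the DNA damage response, which act in arrest, apoptosis, repair and feedback, were often higher in U-2 OS: 23 of 42 tested members were higher than both lines (54.8%, against 21.3% of all genes) and 1 lower (2 without U-251MG library 17 or 20 or A-431 library 24), with medians of 0.86 from A-431 and 0.72 from U-251MG. With a minimum log2 difference of 1 (edgeR glmTreat), 10 of the 42 were called higher, against 1929 of all 19344 genes tested. In total RNA, 21 of the 23 were higher too, beside 88.8% of all tested genes that were higher in cytoplasmic RNA. MDM2, a ubiquitin ligase that damage induces (ENSG00000135679, GRCh37 chromosome 12, 69201957 to 69239324), had 185, 182 and 213 CPM in U-2 OS, 101, 97.5, 94.2 and 83.6 CPM in A-431 and 79.2, 82.2, 90.2 and 90.2 CPM in U-251MG. No library of the other lines reached the lowest U-2 OS value, and the differences were 1.04 (SE 0.0726, adjusted p = 3.97e-11) from A-431 and 1.18 (SE 0.0729, adjusted p = 6.65e-12) from U-251MG. CDKN1A, the cell cycle inhibitor p21, had 169, 159 and 149.8 CPM in U-2 OS, 46.2, 42.3, 42.6 and 49.5 CPM in A-431 and 57.8, 67.7, 53 and 56.8 CPM in U-251MG, with differences of 1.82 (SE 0.0772, adjusted p = 9.77e-15) from A-431 and 1.44 (SE 0.0766, adjusted p = 5.83e-13) from U-251MG. PPM1D, a phosphatase that dampens the response, had 113, 110.3 and 119.8 CPM in U-2 OS, 18.5, 19.1, 17.5 and 17.6 CPM in A-431 and 16.7, 16.7, 19.9 and 17.1 CPM in U-251MG, and its differences of 2.65 and 2.70 were larger than those of MDM2 and CDKN1A. EDA2R, a death domain receptor, had 33.2 CPM in U-2 OS, 0.00783 CPM in A-431 and 1.5 CPM in U-251MG, TRIM22 32 CPM in U-2 OS, 3.09 CPM in A-431 and 0.749 CPM in U-251MG and CYFIP2 89.8 CPM in U-2 OS, 0.693 CPM in A-431 and 21.1 CPM in U-251MG. The lower member, named after its values were seen, was PANK1, with 5.88 CPM in U-2 OS, 18.3 CPM in A-431 and 13.9 CPM in U-251MG.

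Regulators of the G1 phase split between both directions. Of 24, 7 were higher (29.2%) and 5 lower (20.8%), against 21.3% and 16.1% of all genes. Medians were -0.09 from A-431 and -0.02 from U-251MG, the last 0.10 with fitted values for genes without reads. CCND2, the cyclin D2 gene, had 262, 254 and 289 CPM in U-2 OS, 0.815, 0.917, 0.579 and 0.806 CPM in A-431 and 0, 0.111, 0.179 and 0.156 CPM in U-251MG, and CCNE1, the cyclin E1 gene, 86, 84.5 and 85.1 CPM in U-2 OS, 15.4, 12.5, 11.1 and 12.6 CPM in A-431 and 10.6, 10.5, 10.3 and 12.5 CPM in U-251MG. CCND1, the cyclin D1 gene named after its values were seen, was lower instead, with 351 CPM in U-2 OS, 758 CPM in A-431 and 759.8 CPM in U-251MG. CDKN2B, the inhibitor p15, had 7.25 CPM in U-2 OS and 1 read in each other line. Its neighbour CDKN2A, which encodes p16 and p14ARF, had 1 read in U-2 OS, 0.681 CPM in A-431 and no read in U-251MG, and MTAP, the next gene on chromosome 9, was lower, with 56.5 CPM in U-2 OS, 120.4 CPM in A-431 and 111 CPM in U-251MG. CDKN1C, the imprinted inhibitor p57, had 6.59 CPM in U-2 OS, 0.168 CPM in A-431 and 0.673 CPM in U-251MG. RB1 was not specific in cytoplasmic RNA (84.4 CPM in U-2 OS, 92.1 CPM in A-431 and 126 CPM in U-251MG). In total RNA it was called lower than both, by -0.36 from A-431 (adjusted p = 3.4e-05, edgeR) and -0.91 from U-251MG (adjusted p = 6.68e-12).

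The telomere list held as many higher as lower members (5, or 3 without U-2 OS library 14 or 16, and 5 of 24). Each direction had 20.8%, against 21.3% higher and 16.1% lower of all genes. Medians were 0.10 from A-431 and -0.14 from U-251MG. TERT, the catalytic subunit of telomerase, had 0.035, 0.0733 and 0.0348 CPM in U-2 OS, 1.79, 1.05, 1.33 and 1.82 CPM in A-431 and 0.658, 0.887, 0.861 and 0.506 CPM in U-251MG. U-2 OS held 4 reads of TERT in all, and the differences were -4.86 (SE 0.439, adjusted p = 2.46e-09) from A-431 and -3.83 (SE 0.509, adjusted p = 8.49e-07) from U-251MG. ATRX, a chromatin remodeller whose loss is known in cells that keep telomeres by recombination, had the higher RNA level in U-2 OS, with 294, 286 and 321 CPM in U-2 OS, 130.4, 133, 148 and 124 CPM in A-431 and 117, 99, 99 and 93.8 CPM in U-251MG and differences of 1.17 (SE 0.0738, adjusted p = 7.61e-12) from A-431 and 1.56 (SE 0.0744, adjusted p = 9.95e-14) from U-251MG. A gene count does not show which exons are present or whether protein is made. SLX4, a scaffold of nucleases, was higher (47.1 CPM in U-2 OS, 18.6 CPM in A-431 and 23.3 CPM in U-251MG), and POT1, which binds single-stranded telomeric DNA, and ASF1B, a histone chaperone, were lower (22.4 CPM in U-2 OS, 67 CPM in A-431 and 41.6 CPM in U-251MG for POT1, and 46.5 CPM in U-2 OS, 129 CPM in A-431 and 99.5 CPM in U-251MG for ASF1B).

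In the IGF system, 5 of 20 were higher (25%) and 6 lower (30%), against 21.3% and 16.1% of all genes. Medians were 2.13 from A-431 and -0.68 from U-251MG. The ligand gene IGF2 had 90.0, 92.3 and 95.3 CPM in U-2 OS, 0.094, 0.131, 0.0341 and 0 CPM in A-431 and 0.0366, 0.185, 0.179 and 0.0779 CPM in U-251MG, so U-2 OS was far above both lines, with differences of 10.35 (SE 0.184, adjusted p = 7.23e-21) from A-431 and 9.53 (SE 0.174, adjusted p = 2.26e-20) from U-251MG. Among the lower members, IRS2 was nearly absent, as given above, the binding protein gene IGFBP3 had 0.108 CPM in U-2 OS, 155 CPM in A-431 and 17.9 CPM in U-251MG, and STC2, a secreted inhibitor of IGFBP processing, 0.511 CPM in U-2 OS, 94.6 CPM in A-431 and 159 CPM in U-251MG. STC2 split the U-251MG libraries by flow cell, with 207 and 214 CPM in 17 and 18 and 107 and 109 CPM in 19 and 20. IGFBP5 had 441 CPM in U-2 OS, 0.375 CPM in A-431 and 601 CPM in U-251MG, so it was not specific.

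Genes of the WNT pathway were higher in 14 of 38 cases (36.8%) and lower in 5 (13.2%), against 21.3% and 16.1% of all genes. Medians were 1.5 from A-431 and 0.35 from U-251MG. Among the inhibitors, DKK1, which binds the coreceptors LRP5 and LRP6, had 0.315, 0.366 and 0.209 CPM in U-2 OS, 306, 312, 307 and 259.8 CPM in A-431 and 90.2, 126, 196 and 158 CPM in U-251MG. U-251MG libraries varied most, with 90.2 and 126 CPM on flow cell B and 196 and 158 CPM on flow cell A. U-2 OS stayed far below all of them, with differences of -9.95 (SE 0.443, adjusted p = 1.6e-08) from A-431 and -8.89 (SE 0.447, adjusted p = 4.72e-08) from U-251MG. NKD1, an inhibitor that the pathway itself induces, was higher (7.67 CPM in U-2 OS, 0.0251 CPM in A-431 and 0.00924 CPM in U-251MG), as were the ligand gene WNT11 (3.52 CPM in U-2 OS, 0.00852 CPM in A-431 and 0.0287 CPM in U-251MG) and LGR5, a receptor for R-spondins (4.56 CPM in U-2 OS, 0.00852 CPM in A-431 and 0.249 CPM in U-251MG). CTNNB1, the gene of beta-catenin, had 481 CPM in U-2 OS, 391 CPM in A-431 and 738 CPM in U-251MG and DKK3 196 CPM in U-2 OS, 2.5 CPM in A-431 and 231 CPM in U-251MG, and neither was specific.

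Growth factor receptors and ligands had 12 of 39 higher (30.8%) and 8 lower (20.5%), against 21.3% and 16.1% of all genes. Medians were 0.30 from A-431 and -0.47 from U-251MG. PDGFRA, a receptor of platelet-derived growth factor, had 26.1, 26.2 and 27.8 CPM in U-2 OS, 0, 0.0655, 0 and 0.105 CPM in A-431 and 2.85, 1.66, 2.47 and 1.75 CPM in U-251MG. ROR2, a receptor for WNT5A, had 13.9 CPM in U-2 OS, no read in A-431 and 3 reads in U-251MG. EGFR, the epidermal growth factor receptor, was lowest in U-2 OS, with 31, 45 and 43.7 CPM in U-2 OS, 13137, 13180.5, 13588 and 13541 CPM in A-431 and 171, 177, 214 and 202 CPM in U-251MG. The difference from A-431, the line known for this receptor, was -8.39, and the difference from U-251MG was -2.26 (adjusted p = 3.09e-12, edgeR). TGFA, a ligand of EGFR, was lower as well (12 CPM in U-2 OS, 151 CPM in A-431 and 94.3 CPM in U-251MG).

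Antigen presentation by MHC class I was the list with the largest share downwards. Of its 16 tested members, 13 were lower than both lines (81.2%, against 16.1% of all genes), with medians of -1.41 from A-431 and -0.90 from U-251MG. In total RNA 12 of the 13 were lower too, beside 83.6% of all tested genes that were lower in cytoplasmic RNA. No member was called higher than both lines by edgeR or DESeq2, nor at an unadjusted p under 0.05 (count 0). With a minimum log2 difference of 1, 3 of the 16 were called lower, against 687 of all 19344 genes tested. By single contrast, 15 members were lower than A-431, 13 were lower than U-251MG, and 1, HLA-B, was higher than U-251MG. Over all genes, 31.1% were lower than A-431, 28.7% lower than U-251MG and 33.2% higher than U-251MG. B2M, the light chain that all class I molecules share, had 370.1, 399 and 413 CPM in U-2 OS, 941, 939, 981 and 1049.8 CPM in A-431 and 1217, 1056, 1015 and 1005 CPM in U-251MG, with differences of -1.31 (SE 0.0732, adjusted p = 9.63e-13) from A-431 and -1.45 (SE 0.0736, adjusted p = 2.73e-13) from U-251MG. TAP2, a subunit of the peptide transporter, had 18, 18.4 and 18.2 CPM in U-2 OS, 78.3, 83.2, 80.2 and 75.6 CPM in A-431 and 67.4, 61.8, 67.3 and 67.2 CPM in U-251MG, with differences of -2.12 (SE 0.0653, adjusted p = 4.32e-17) from A-431 and -1.86 (SE 0.0651, adjusted p = 5.88e-16) from U-251MG. The lowest library of either other line was above the highest of U-2 OS for both genes. MICB, a stress-induced ligand of natural killer cells, had 0.152 CPM in U-2 OS, 47.2 CPM in A-431 and 3.68 CPM in U-251MG. HLA-B had 147 CPM in U-2 OS, 481 CPM in A-431 and 89.1 CPM in U-251MG, with a difference of 0.72 from U-251MG (adjusted p = 0.000439, edgeR), and HLA-C 148 CPM in U-2 OS, 636 CPM in A-431 and 113 CPM in U-251MG, lower than A-431 and not called against U-251MG. Reads that align equally well to more than 1 of the near-identical HLA genes were left out, which makes each of these counts uncertain. Genes of innate sensing and of the interferon response were lower in 12 of 33 cases (36.4%) and higher in 4 (medians -1.24 from A-431 and -0.14 from U-251MG). IFIT2 had 0.98 CPM in U-2 OS, 102 CPM in A-431 and 9.03 CPM in U-251MG, IFIT3 2.1 CPM in U-2 OS, 76.6 CPM in A-431 and 14.4 CPM in U-251MG, and the GTPase gene GBP1 1.96 CPM in U-2 OS, 21.7 CPM in A-431 and 58 CPM in U-251MG. OAS2 (0.0354 CPM in U-2 OS, 10.2 CPM in A-431 and 0.313 CPM in U-251MG) was called lower, but its call against U-251MG was lost when any U-2 OS library or U-251MG library 17 was left out (adjusted p 0.00119 to 0.00515, edgeR). BST2, the antiviral tetherin, had 5.59 CPM in U-2 OS, 191 CPM in A-431 and 1.76 CPM in U-251MG, so it was not specific.

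**Figure D3:**
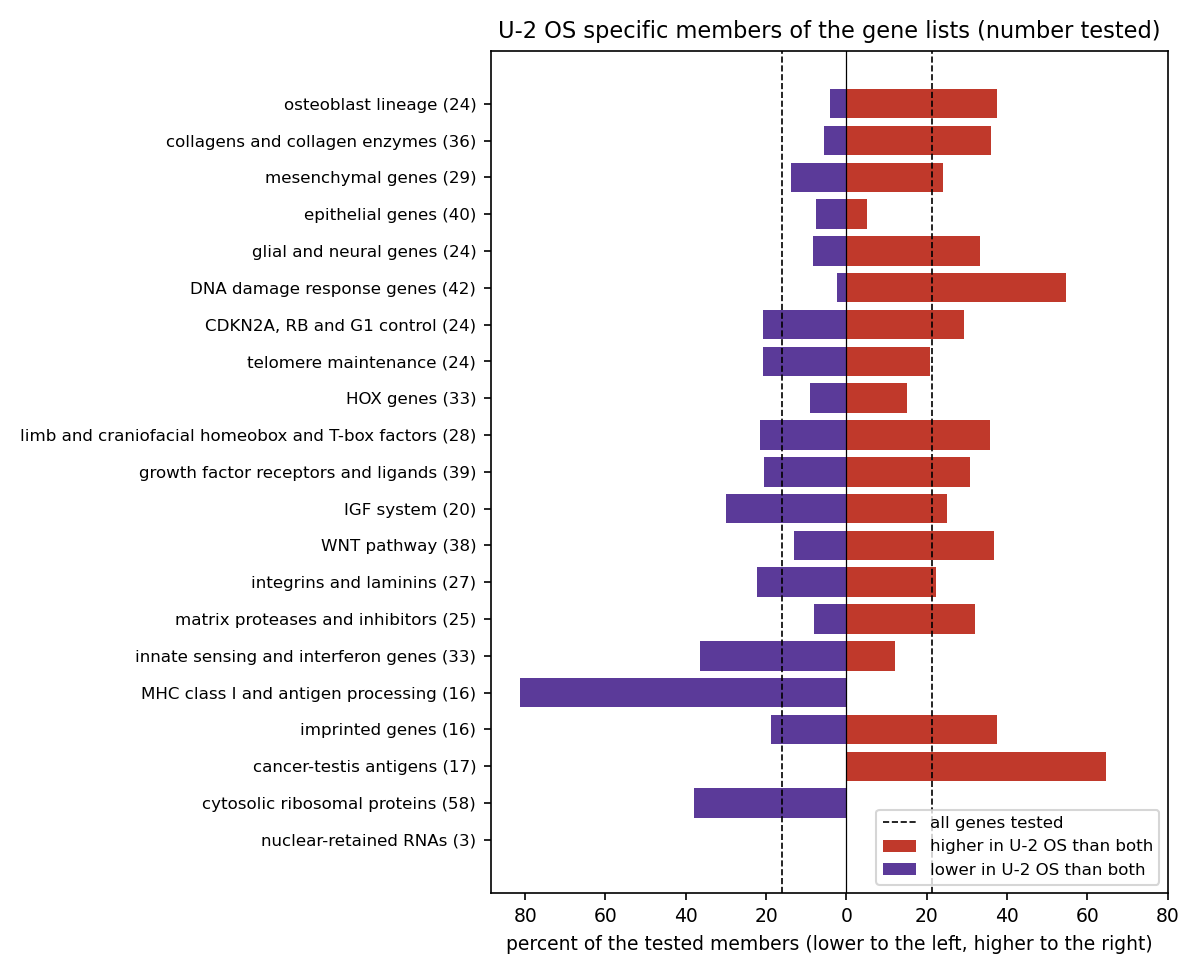
Bars give the percent of the tested members of each gene list that were higher (red, to the right) or lower (purple, to the left) in U-2 OS than in both other lines, with dashed lines at 21.3% and 16.1% for all genes tested. Cancer-testis antigens and DNA damage response genes reach farthest to the right, and MHC class I genes farthest to the left.

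Cancer-testis antigens, genes of the germ line that tumours can express, had the largest share upwards: 11 of 17 tested members were higher (64.7%) and 0 lower by edgeR or DESeq2, also 0 at an unadjusted p under 0.05, with medians of 5.60 from A-431 and 5.91 from U-251MG. Only 17 of 30 matched members passed the filter on low counts, so these shares describe members expressed in some line. A member with reads in U-2 OS alone could pass, whereas a lower call needed reads in both other lines. The filter and the call thus favour the share upwards in such a list. Against single lines, 3 members were lower than A-431 and 2 lower than U-251MG, beside 31.1% and 28.7% of all genes. MAGEB2 had 106, 105 and 104 CPM in U-2 OS, 0.0627, 0.0328, 0 and 0 CPM in A-431 and 0, 0.185, 0 and 0.117 CPM in U-251MG, and LIN28B, which blocks the maturation of let-7 microRNAs, 22.4 CPM in U-2 OS, 0.00819 CPM in A-431 and 0.0458 CPM in U-251MG. PAGE2 had 46.4 CPM in U-2 OS, 0.00783 CPM in A-431 and 0.0184 CPM in U-251MG and DDX43 10.7 CPM in U-2 OS, 0.0252 CPM in A-431 and 0.00973 CPM in U-251MG. MAGEA4 (231 CPM in U-2 OS, 515 CPM in A-431 and 0.371 CPM in U-251MG) and PAGE1 (0.284 CPM in U-2 OS, 70.9 CPM in A-431 and 0.0185 CPM in U-251MG) were highest in A-431. These families hold near-identical copies, so counts of single members are uncertain. Of the imprinted genes, 6 of 16 were higher (37.5%) and 3 lower (18.8%), against 21.3% and 16.1% of all genes. Medians were 5.14 from A-431 and -0.26 from U-251MG. PEG3 had 18.4 CPM in U-2 OS, no read in A-431 and 2 reads in U-251MG, whereas MEST had 0.131 CPM in U-2 OS, 89.1 CPM in A-431 and 13.9 CPM in U-251MG.

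Some markers of the other lineages were present in U-2 OS. The epithelial list had 2 of 40 members higher (5%) and 3 lower (7.5%), against 21.3% and 16.1% of all genes. Medians were -4.34 from A-431 and 1.41 from U-251MG. Both higher ones were keratins of basal epithelium. KRT14 had 12.3, 10.1 and 10.7 CPM in U-2 OS, 0.219, 0.0655, 0.0341 and 0.0701 CPM in A-431 and 0, 0.0369, 0.0717 and 0 CPM in U-251MG, and KRT17 492, 513 and 485 CPM in U-2 OS, 130.3, 135, 125 and 143 CPM in A-431 and 0.256, 0.517, 0.395 and 0.234 CPM in U-251MG. KRT17 ranked 118 by RPKM in U-2 OS and was above every A-431 library, although A-431 is the epithelial line, and KRT14, a marker of that lineage, was nearly absent from A-431. Other epithelial markers were highest in A-431, among them CDH1, E-cadherin (1.62 CPM in U-2 OS, 382 CPM in A-431 and 0.138 CPM in U-251MG), and the desmosome gene DSP (1.47 CPM in U-2 OS, 463 CPM in A-431 and 0.23 CPM in U-251MG). KRT5 and KRT8 were highest there too (2.55 CPM in U-2 OS, 82.7 CPM in A-431 and 0.0732 CPM in U-251MG for KRT5, and 444 CPM in U-2 OS, 2694 CPM in A-431 and 2.22 CPM in U-251MG for KRT8), and KRT15 was lower in U-2 OS than in both lines (4.88 CPM in U-2 OS, 268 CPM in A-431 and 21.6 CPM in U-251MG). The glial and neural list had 8 of 24 higher (33.3%) and 2 lower (8.33%), with medians of 1.98 from A-431 and -0.29 from U-251MG. OLIG2, a transcription factor of oligodendrocytes, had 3.68, 3.99 and 3.51 CPM in U-2 OS, 0 in all 4 libraries of A-431 and 0 in all 4 libraries of U-251MG, at least 149.5-fold and 134-fold higher. MSI1, an RNA-binding protein of neural stem cells, had 14 CPM in U-2 OS, no read in A-431 and 0.194 CPM in U-251MG, and ALDH1L1 7.89 CPM in U-2 OS, 0.189 CPM in A-431 and 0.128 CPM in U-251MG. GLUL, glutamine synthetase, was lower (3.88 CPM in U-2 OS, 137 CPM in A-431 and 56.3 CPM in U-251MG). GFAP, the astrocyte filament, was low in every line (0.807 CPM in U-2 OS, 0.083 CPM in A-431 and 4.02 CPM in U-251MG), including the glioblastoma line. The other markers of U-251MG were FABP7 (0.129 CPM in U-2 OS, 0 CPM in A-431 and 68.5 CPM in U-251MG), S100B (0.0122 CPM in U-2 OS, 0 CPM in A-431 and 6.66 CPM in U-251MG), SOX2 (14.5 CPM in U-2 OS, 0.0157 CPM in A-431 and 89.4 CPM in U-251MG) and NES, the gene of nestin, which was highest in U-2 OS (176 CPM in U-2 OS, 0.0484 CPM in A-431 and 53 CPM in U-251MG).

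HOX genes, which set position along the body axis, had 5 of 33 members higher and 3 lower, smaller shares than over all genes (medians 0.38 from A-431 and -0.28 from U-251MG). HOXC8 (8.59 CPM in U-2 OS, 0.854 CPM in A-431 and 1.92 CPM in U-251MG) and HOXC9 (8.82 CPM in U-2 OS, 0.91 CPM in A-431 and 3.32 CPM in U-251MG) were higher and HOXA5 (1.47 CPM in U-2 OS, 6.26 CPM in A-431 and 5.69 CPM in U-251MG) lower, and HOXA9 was highest in A-431 (26.9 CPM in U-2 OS, 95 CPM in A-431 and 0.476 CPM in U-251MG). Of the limb and craniofacial homeobox and T-box factors, 10 of 28 were higher (35.7%) and 6 lower (21.4%), against 21.3% and 16.1% of all genes. Medians were 0.24 from A-431 and 0.54 from U-251MG. TBX18 had 16.4 CPM and HAND2 2.32 CPM in U-2 OS, both with no read in A-431 and 4 and 6 reads in U-251MG, and ALX4 had 3.03 CPM in U-2 OS, 0.0166 CPM in A-431 and 0.103 CPM in U-251MG. TBX2 was lower (0.0356 CPM in U-2 OS, 0.462 CPM in A-431 and 3.27 CPM in U-251MG), and EYA4 was highest in U-251MG (0.035 CPM in U-2 OS, 0 CPM in A-431 and 78.4 CPM in U-251MG).

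Of 58 cytosolic ribosomal protein genes 22 were lower (37.9%, against 16.1% of all genes), by small amounts. Medians were -0.19 from A-431 and -0.31 from U-251MG, and 0 were lower with a minimum log2 difference of 1. By edgeR and by DESeq2 0 were higher, with 2 at an unadjusted p under 0.05 and 1 called without A-431 library 24. By single contrast 8 were higher than A-431 and 4 higher than U-251MG, beside 34.1% and 33.2% of all genes. RPL22 had 38.2 CPM in U-2 OS, 121 CPM in A-431 and 87.4 CPM in U-251MG, RPL26 117 CPM in U-2 OS, 209 CPM in A-431 and 253 CPM in U-251MG and RPS6 503 CPM in U-2 OS, 946 CPM in A-431 and 894 CPM in U-251MG. RPS28 (1.69 CPM in U-2 OS, 2.98 CPM in A-431 and 7.2 CPM in U-251MG) was the least certain, and its call was lost without U-2 OS library 14 or 16 or A-431 library 21, 22 or 24 (larger adjusted p 0.00185 to 0.00377, edgeR). Reads that align equally well to a pseudogene of a ribosomal protein gene were left out of the counts.

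The position of the genes on the chromosomes, which the selection did not use, was uneven. On chromosome 22, 40.4% of 460 tested genes were higher and 5.0% lower, and the medians were 0.38 from A-431 and 0.84 from U-251MG. Chromosome 18 had 34.4% higher, chromosome 8 30.7% and chromosome 14 28.8%, against 21.3% of all genes. The smallest shares upwards were 14.1% on chromosome 6, 14.2% on chromosome 13 and 14.5% on chromosome 1, and chromosome 19 had the largest share downwards, 24.7%. In total RNA, chromosome 22 again had the largest share upwards (44.8% of 433 genes), while the largest share downwards was on chromosome 10 (24.7% of 720 genes) and chromosome 19 had 19.8%. 

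**Figure D4:**
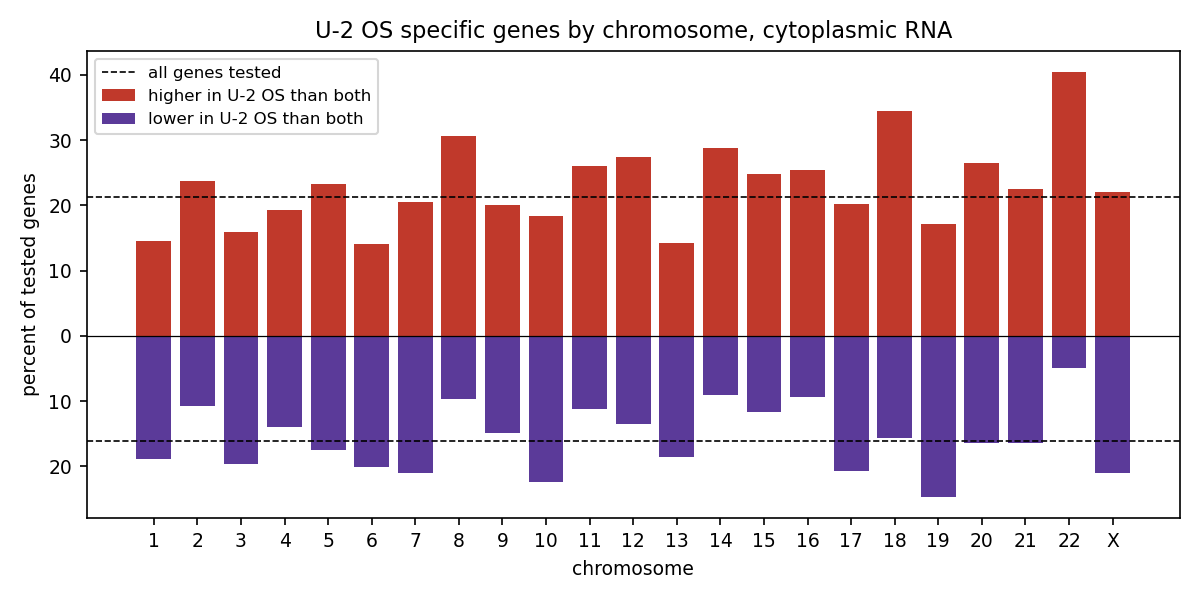
Bars give the percent of tested genes on each chromosome that were higher (red, upwards) or lower (purple, downwards) in U-2 OS than in both other lines, with dashed lines for all genes tested. Chromosome 22 stands highest upwards at 40.4% and is lowest downwards at 5.0%.

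Medians over 17586 windows of 25 neighbouring tested genes located these differences. A limit of 1.5 in both contrasts, set after the values were seen, was passed by 40 windows upwards and 23 downwards, which merged into 5 regions whose own medians can lie under the limit. Because these differences picked the regions, the cytoplasmic counts of higher and lower genes within them follow in part from that choice. The chromosome 22 region (GRCh37, 24407642 to 29708776) held 49 tested genes from CABIN1 to GAS2L1. Of these, 35 were higher (71.4%, against 21.3% of all genes) and 0 lower by edgeR (against 16.1%), with 1 lower by DESeq2 and 1 at an unadjusted p under 0.05. Medians were 1.67 and 1.52. The region mixed genes silent elsewhere with genes that all lines use. MYO18B, an unconventional myosin, had 101, 105 and 94.5 CPM in U-2 OS, 0, 0.0328, 0 and 0.105 CPM in A-431 and 0.0731, 0.222, 0.143 and 0.0779 CPM in U-251MG, and MN1, a transcriptional coregulator, 161, 168 and 171 CPM in U-2 OS, 0.094, 0.0983, 0 and 0.035 CPM in A-431 and 4.53, 5.06, 4.48 and 4.09 CPM in U-251MG. The long non-coding RNA MIAT had 44.7 CPM in U-2 OS, 0.365 CPM in A-431 and 0.647 CPM in U-251MG. Among widely expressed genes, HPS4, a factor of lysosome-related organelles, had 221 CPM in U-2 OS, 56.9 CPM in A-431 and 47.2 CPM in U-251MG, TFIP11, a splicing factor, log2 differences of 1.67 and 1.73, and TPST2, a protein tyrosine sulphotransferase, 98 CPM in U-2 OS, 13.6 CPM in A-431 and 28.2 CPM in U-251MG. EWSR1, in the same region, was not called (222 CPM in U-2 OS, 248 CPM in A-431 and 229.9 CPM in U-251MG), nor was CHEK2 (30.3 CPM in U-2 OS, 37.8 CPM in A-431 and 10.5 CPM in U-251MG).

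The only region downwards lay at the end of the long arm of chromosome 7 (GRCh37, 145813094 to 158380515). Of its 71 tested genes from CNTNAP2 to PTPRN2, 46 were lower (64.8%, against 16.1% of all genes) and 8 higher (11.3%, against 21.3%), with medians of -1.54 and -1.65. EZH2, the catalytic subunit of the Polycomb complex PRC2, had 32, 33.9 and 35.2 CPM in U-2 OS, 79.9, 83.3, 79.4 and 72 CPM in A-431 and 106, 103, 101 and 104 CPM in U-251MG, with differences of -1.22 (SE 0.0636, adjusted p = 2.98e-13) from A-431 and -1.61 (SE 0.0642, adjusted p = 4.64e-15) from U-251MG. EZHIP, whose product inhibits the same enzyme, was given above among the genes higher in U-2 OS. INSIG1, a sterol sensor, had 19.9, 22 and 22.5 CPM in U-2 OS, 174, 161, 178 and 178 CPM in A-431 and 183, 258, 287 and 295 CPM in U-251MG. CUL1, a scaffold of ubiquitin ligases, had 34.2 CPM in U-2 OS, 145 CPM in A-431 and 131 CPM in U-251MG, the GTPase gene RHEB, an activator of mTORC1, 14.7 CPM in U-2 OS, 67.4 CPM in A-431 and 75 CPM in U-251MG, UBE3C 63.5 CPM in U-2 OS, 221 CPM in A-431 and 247 CPM in U-251MG, and the histone methyltransferase gene KMT2C 51.5 CPM in U-2 OS, 108 CPM in A-431 and 76.4 CPM in U-251MG. In each of these genes U-2 OS lay below all libraries of both lines.

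**Figure D5:**
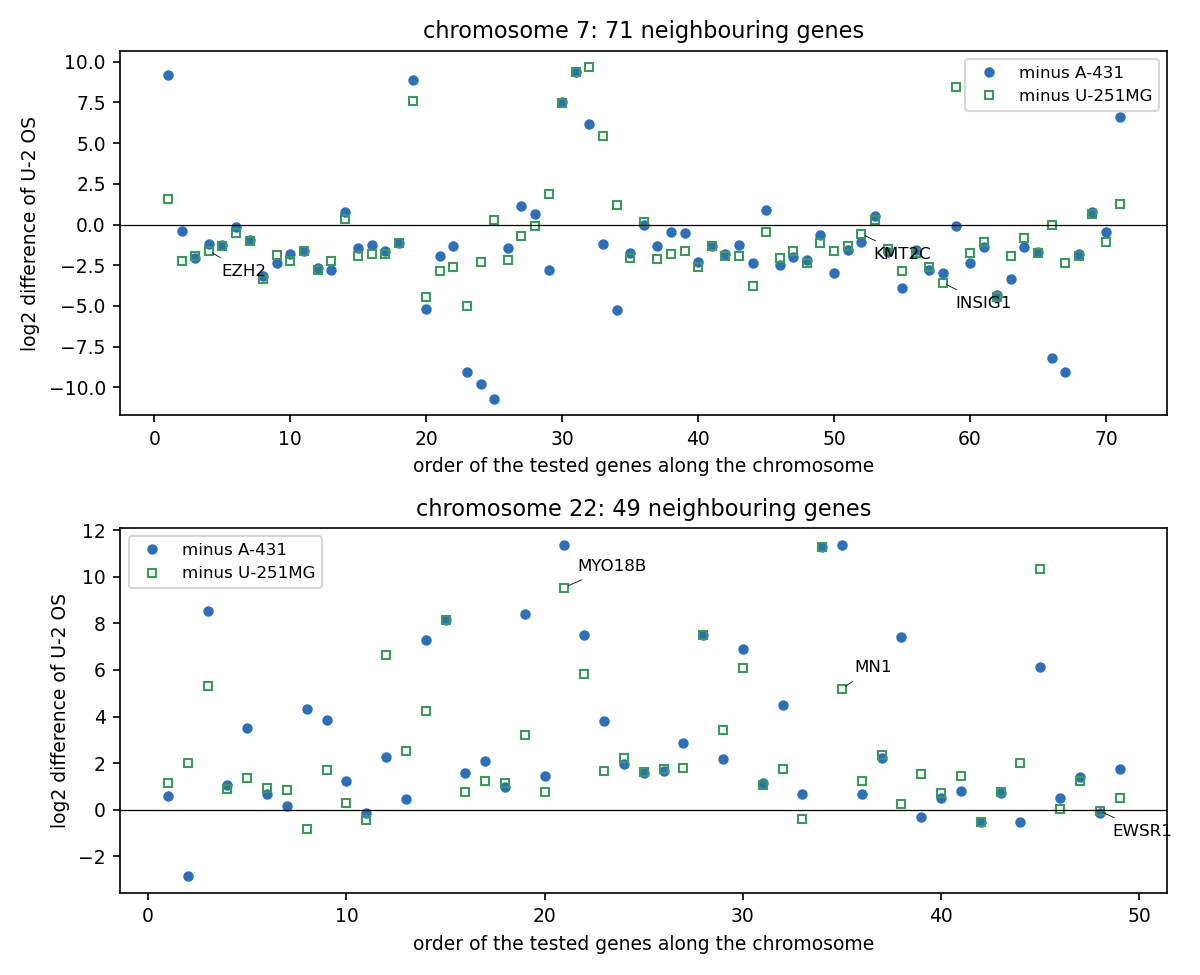
Fitted log2 differences of U-2 OS from A-431 (filled circles) and from U-251MG (open squares) are plotted for neighbouring tested genes, in their order along the chromosome, in the low region of chromosome 7 (71 genes) and the high region of chromosome 22 (49 genes). Most genes of the first lie below 0 in both contrasts, and most of the second above 0.

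The other 3 regions were higher in U-2 OS, and their counts stand beside 21.3% higher and 16.1% lower of all genes. On chromosome 5 (140019020 to 140892544), 19 of 34 genes were higher and 3 lower (medians 7.39 and 1.11), with all 19 higher ones among the 27 protocadherin genes of the clusters at this place, which encode adhesion proteins of the nervous system. PCDHB5 had 44, 45.2 and 42 CPM in U-2 OS, 0, 0.0655, 0 and 0 CPM in A-431 and 0.0731, 0.259, 0.108 and 0.117 CPM in U-251MG, PCDHB8 11.4 CPM in U-2 OS, 0.00819 CPM in A-431 and 0.221 CPM in U-251MG and PCDHA6 6.05 CPM against no read in either other line, while PCDHGC3 was highest in U-251MG (26.7 CPM in U-2 OS, 21.4 CPM in A-431 and 159 CPM in U-251MG). The clusters share exons and close copies, and reads that fit more than 1 gene or place were left out of the counts, so members may be undercounted. On chromosome 8 (132916340 to 143763386), 18 of 26 genes were higher and 1 lower (medians 1.65 and 1.90), the higher ones including AGO2, the effector of microRNAs (118 CPM in U-2 OS, 28.1 CPM in A-431 and 25.2 CPM in U-251MG), PTK2, focal adhesion kinase (227 CPM in U-2 OS, 96.3 CPM in A-431 and 125 CPM in U-251MG), and ADGRB1, an adhesion receptor (23.1 CPM in U-2 OS, 0.00876 CPM in A-431 and 0.00973 CPM in U-251MG). On chromosome X (49090415 to 53200096), 12 of 27 were higher and 2 lower (medians 1.27 and 1.32), the higher ones including EZHIP, NUDT11 (30.9 CPM in U-2 OS, 0.00783 CPM in A-431 and 0.0185 CPM in U-251MG) and MAGED1 (466 CPM in U-2 OS, 74.2 CPM in A-431 and 134 CPM in U-251MG). In total RNA, where 21.7% of all genes were higher and 16.1% lower, 32 of 45 tested genes were higher in the chromosome 22 region. There, 44 of 70 were lower in the region of chromosome 7, 17 of 32 higher on chromosome 5 and 12 of 26 higher on chromosome X. On chromosome 8, 13 of 24 were higher there, against 18 of 26 in cytoplasmic RNA. By gene type, 23.8% of 1237 long non-coding RNAs were higher and 9.46% lower, against 23.4% and 18.5% of 14200 protein-coding genes, and pseudogenes were called less often (10.6% and 9.07% of 2722).

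The 12 libraries of total RNA, which the selection did not use, gave the same contrast from separate libraries of the same lines. There, 4045 of 18610 genes were higher than both lines (21.7%) and 2991 lower (16.1%). Of the 4115 genes higher in cytoplasmic RNA, 3505 were higher in total RNA, 440 were not called, 1 was lower and 169 were not tested. Of the 3118 lower genes, 2587 were lower, 507 were not called and 24 were not tested. The call was repeated for 88.8% of the tested higher and 83.6% of the tested lower genes. Of the 124 called genes given values here, 122 were called in total RNA, the exceptions being OAS2 and RPS28. A test of the difference between the fractions, over 23 libraries in 1 model, was past an adjusted p of 0.05 for 421 of 19333 genes for the A-431 contrast (2.18%) and 333 for the U-251MG contrast (1.72%). Among genes higher in U-2 OS it was passed by 112 (2.72%) and 106 (2.58%), and among lower genes by 67 (2.15%) and 48 (1.54%). All total RNA libraries were sequenced on flow cell A and all A-431 cytoplasmic libraries on flow cell B, by the study's tables, so for A-431 fraction and flow cell cannot be told apart.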

How the data were processed

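The authors sequenced poly(A)-selected RNA of 3 cell lines as total and cytoplasmic fractions, 24 libraries in all. Reads had been aligned by the authors to hg19 with TopHat (1.1.4), and per the labels HTSeq (0.4.6) produced the deposited counts, whole numbers of reads per Ensembl gene, without regard to strand. Entries naming no gene (28.1% to 30.6% of the reads in the 11 libraries) were removed. The authors' RPKM values, deposited beside them, gave ranks only, and the read numbers in the same files were not used.

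Libraries 14 to 24 entered 1 edgeR 4.0.16 model in R 4.3.3 (filterByExpr, TMM, robust quasi-likelihood test, Benjamini-Hochberg adjusted p under 0.001), with both U-2 OS contrasts. Genes past both in 1 direction are U-2 OS specific. Flow cells, and the reason to leave out library 13, came from matching read totals to the study's list. Total RNA was fitted alone, and the fraction difference in a model of 23 libraries. Places and symbols came from GENCODE v44 lifted to GRCh37, which held 42986 of 51715 genes. Fitted log2 differences use a prior count of 0.125.

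The members and the 21 gene lists were chosen with earlier results of these data known. Named genes were the 15 with the largest smaller difference in each direction (at least 8 CPM, no overlap), up to 4 called (at least 2 CPM) and 2 other members of each list, and fixed markers, printed in part. Genes of the regions were chosen after their values were seen, as were CDKN2B's neighbour MTAP, CCND1 and PANK1. CDH11, CDH1, DSP, FABP7, NES, S100B and SOX2 come from the marker list and were added to the text after their values were seen. Some genes are not reported here and were taken out of the lists. Of the 154 genes given values, 41 overlap another tested gene on the opposite strand. Reads from the stretch that both genes share cannot be told apart. The overlap can be a small part of a gene, and its share of the reads was not measured. Labels do not tie libraries to cultures, and they name Trizol and paired-end libraries where the methods describe RNeasy and single reads. Alternatives were another tool (DESeq2 1.42.0), RLE size factors, all genes with a read, an adjusted p under 0.05, a minimum log2 difference of 1, library 13 added, flow cell B alone or as a term, separate fits, thinned counts, a GC correction and leaving out each library.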

Additional observations from a re-analysis of the deposited data

Results flagged for a closer look

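Of 206 groups of 4 libraries with at least 20 reads checked over the named genes, 17 held a library that stood apart from the other 3 by Dixon's test, and chance alone gives about 1 in 20. The test cannot show a split of 2 libraries against 2, as STC2 had in U-251MG (207 and 214 against 107 and 109). U-2 OS, with 3 libraries, was not checked. All values are CPM, and none of these groups came to overlap U-2 OS through the library that stood apart where the gene was called.

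In A-431, library 24 stood apart for 6 genes: CACNG4 (16.3 against 11.5 to 12.3 in the others), DKK1 (260 against 306 to 312), GBP1 (24.8 against 20.2 to 20.8), TWIST1 (1.44 against 1.7 to 1.75), RPS6 (1.02e+03 against 917 to 926) and KRT5 (93.5 against 78.7 to 79.4). IGFBP5 stood apart in library 23 (0.511 against 0.315 to 0.345) and COL3A1 in library 22 (0.492 against 0.17 to 0.219).

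In U-251MG, library 17 stood apart for OAS2 (0.585 against 0.195 to 0.259), GBP1 (66.5 against 54.6 to 56.3) and CTNNB1 (808 against 706 to 721). Library 18 did so for AGO2 (27.7 against 24 to 24.6), POT1 (36.4 against 43.1 to 44) and TAP2 (61.8 against 67.2 to 67.4), library 19 for UBE3C (263 against 240 to 244) and PPM1D (19.9 against 16.7 to 17.1), and library 20 for CCNE1 (12.5 against 10.3 to 10.6).

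The U-2 OS cytoplasmic library 13, which entered only the alternative that adds it, had 78.99 CPM of MALAT1 and 1152 CPM of NEAT1. The 3 libraries used had 50.76 to 60.62 and 616.6 to 865.3 CPM.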

How the results depend on the processing

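A minimum log2 difference of 1 (edgeR glmTreat) moved the most counts. With it, 1929 genes were higher and 687 lower than both lines, so that 73.7% of the specific genes were higher, against 56.9% without a minimum. Against A-431 alone 3358 were higher and 2299 lower, and against U-251MG 3156 and 1640. The chromosome 8 region then held 11 higher genes and the chromosome 22 region 19. Protein-coding genes numbered 1502 higher and 567 lower, and long non-coding RNAs 187 and 48. At an adjusted p under 0.05, 193 long non-coding RNAs were lower. In the other 158 counts for whole comparisons, regions and gene types, the value stayed within 1.5 times that reported. With each library left out, 3817 to 4228 genes were higher than both lines and 2775 to 3093 lower (6196 to 6919 and 5491 to 6051 against A-431, 6030 to 6543 and 5061 to 5594 against U-251MG, and 3697 to 4317 and 2737 to 3042 in total RNA). Long non-coding RNAs then numbered 265 to 297 higher and 91 to 115 lower, protein-coding genes 3067 to 3429 and 2375 to 2619, and the regions held 33 to 37 (chromosome 22), 19 (chromosome 5), 17 to 19 (chromosome 8) and 12 (chromosome X) higher and 46 to 47 (chromosome 7) lower genes. The GC correction moved the median of all genes to 0.09 from A-431 and 0.12 from U-251MG. Among lists, 46 of 462 counts moved by over 1.5 times, most under the minimum difference, and 15 of 462 with a library left out. No named gene changed direction, and 21 of 1363 calls were lost, among them KRT15 with flow cell B alone (adjusted p = 0.00152, edgeR) and MDM2 and ATRX under the minimum difference. Leaving out a library lost 9 further calls, all of OAS2 and RPS28. No paired analysis was possible because the library numbers run through the series, so the groups share none. Where a gene has few reads, as OAS2 and TERT do in U-2 OS, depth limits the value, and the cause of moved counts was not tested.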
